A study of Mus musculus with 5 samples.

Results

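The mitochondrial respiratory chain genes described here were 43 nuclear genes encoding subunits of complexes I to V and cytochrome c, listed by name and described by complex. The list held 17 genes of complex I, 4 of complex II, 7 of complex III with cytochrome c, 7 of complex IV and 8 of complex V. Each gene was followed through the probe set that named it alone, or, where several did, the brightest of them on average. In this way 42 of the 43 genes were measured, out of 19938 genes on the array. Cox7c was not analysed here because each of its 3 probe sets also named another gene. All 42 lay above the median level of the measured genes (7.41 on the log2 scale), so that the 9969 genes above that level served as the background throughout.

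The respiratory chain passes electrons from NADH through complex I, or from succinate through complex II, to ubiquinone, complex III, cytochrome c and complex IV, where oxygen is reduced. Complexes I, III and IV pump protons across the inner mitochondrial membrane, and complex V, the ATP synthase, lets them flow back to make ATP. In the stomach the acid-secreting parietal cells are packed with mitochondria, whose ATP drives the proton pump of the gastric mucosa. Genes for these subunits are expressed in every cell with mitochondria, so in whole tissue their values sum over many cell types.

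Gene expression was profiled in male ddY mice, an outbred stock, aged 5 weeks, in 5 groups with 1 Affymetrix Mouse Gene 1.0 ST array each. Each group had 2 oral administrations 0.5 h apart, and tissue was taken 4 h after the last. The control had gum arabic (GA) at both times (GA+GA). LG21+GA mice received Lactobacillus gasseri OLL2716, named LG21, and then gum arabic, and GA+Asp mice gum arabic and then aspirin. In Tep+Asp and LG21+Asp mice aspirin was preceded by teprenone, a mucosal protective drug, or by LG21. No genetic change was named in any group, and neither doses nor the number of mice behind an array are given in the sources used here. With no replicates, differences between 2 arrays could not be set against the spread between animals. The contrast that was tested, of the 3 arrays with aspirin and the 2 without, pools pretreatments, and a contrast of the 2 LG21 arrays with the rest was not tested.

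The tissue was labelled gut and carried the markers of the stomach. Atp4a, which encodes the catalytic chain of the acid pump of parietal cells, lay between 13.44 and 13.47, and the surface mucin Muc5ac between 13.29 and 13.34. The mean of 18 parietal cell markers ran from 11.08 in GA+GA to 11.16 in GA+Asp. The means of 8 adipocyte markers (7.12 to 7.19) and 10 smooth muscle markers (10.46 to 10.56) varied about as little. Markers of some other tissues varied far more. The mean of 12 hepatocyte markers was 10.61 in GA+GA and 7.57 in GA+Asp, that of 14 squamous epithelium markers lay between 7.26 in LG21+Asp and 8.59 in Tep+Asp, and that of 13 skeletal muscle markers was 7.12 in GA+Asp and 6.81 to 6.84 elsewhere. Array medians lay between 6.94 and 6.98, and Pearson's r across genes between pairs of arrays ran from 0.995 to 0.999. In whole tissue, fewer cells of a type and less RNA per cell cannot be told apart.

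The respiratory chain genes, which were chosen as abundant in parietal cells, had high values that were nearly level across the 5 arrays. Their mean log2 values ran from 8.16 for Ndufb10 to 13.12 for Cox6c, and 11 of the 42 lay above 12, near the top of the scale. The range of a gene over the 5 arrays had a median of 0.084, against 0.088 for the genes above the median level and 0.086 for the 4985 genes above the 75th percentile. It was under 0.1 for 29 of 42 members, or 69.0%, and for 56.3% of the background genes. Only Sdhd, at 0.48, and Ndufs6, at 0.20, had a range of at least 0.2, or 4.76% of members against 12.1% of the background.

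**Figure D1:**
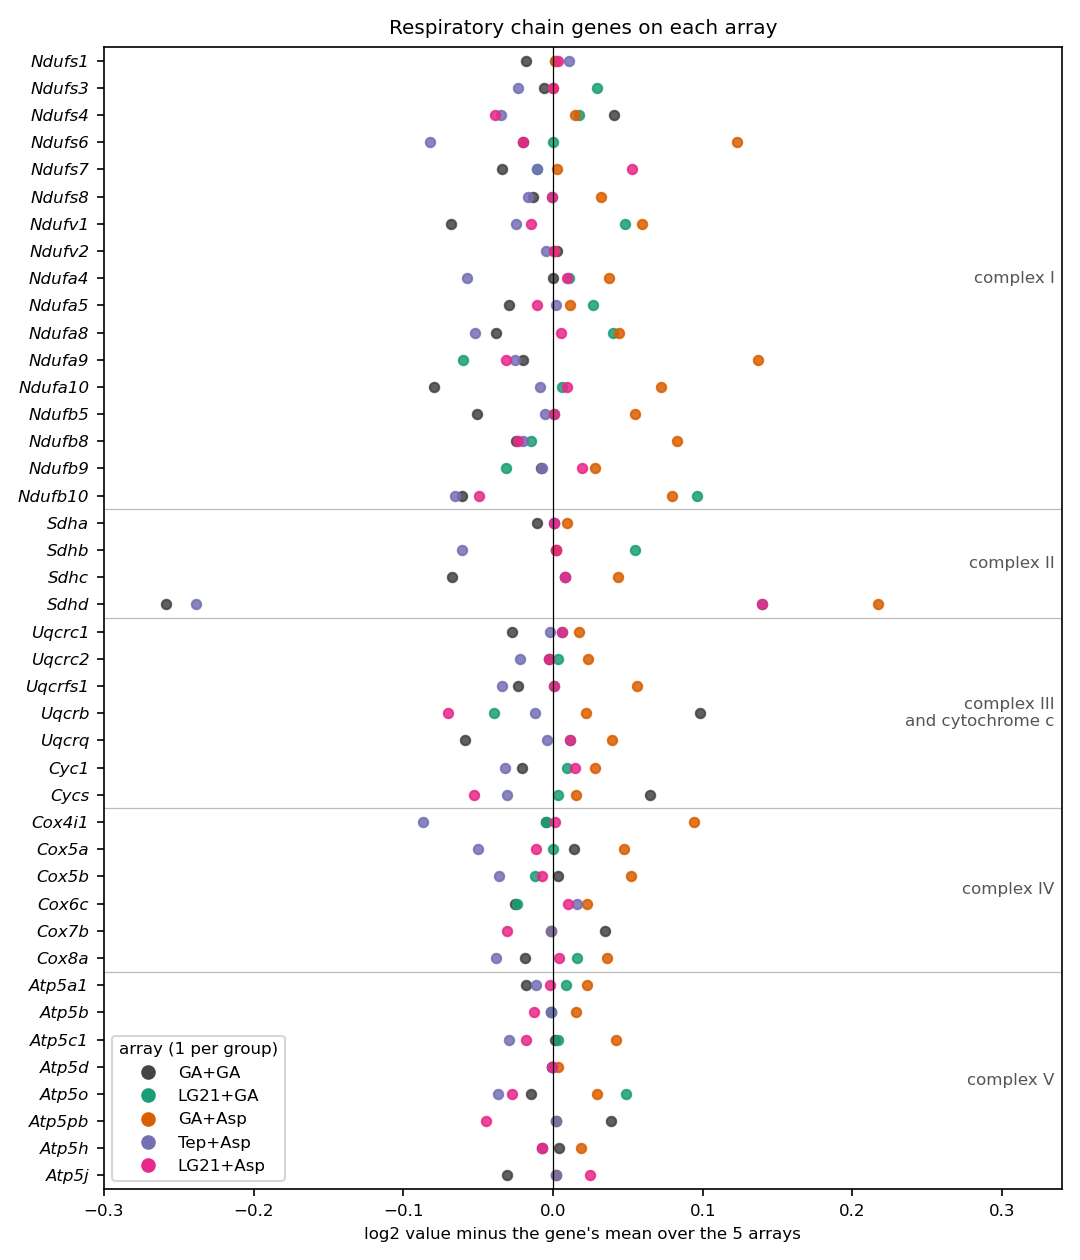
Each of the 42 measured respiratory chain genes on the 5 arrays, grouped by complex. The x axis gives the log2 value on an array minus that gene's mean over the 5 arrays, and each point is 1 array, with no error bar since each group has 1 array. Most points lie within 0.1 of 0, the GA+Asp points lie mostly to the right, and Sdhd stands apart with GA+GA and Tep+Asp far to the left of the other 3 arrays.

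Sdhd, which encodes a membrane anchor of succinate dehydrogenase (complex II), differed most. Its log2 value stood at 11.70 in GA+GA, 12.09 in LG21+GA, 12.17 in GA+Asp, 11.72 in Tep+Asp and 12.09 in LG21+Asp. The arrays thus fell into 3 that were high and 2 that were low, with a gap of 0.38, or 1.3-fold, between the lowest of the high ones and the highest of the low ones. The high arrays held both LG21 groups and the aspirin group given gum arabic first, and the low arrays the control and the teprenone group. The range of 0.48 was reached by 161 of the 9969 background genes, or 1.62%.

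The grouping of arrays in Sdhd was seen first and then looked for elsewhere, and so is a description. LG21+GA, GA+Asp and LG21+Asp all lay above GA+GA and Tep+Asp in 15 of 42 members and in 5.43% of the background genes. For the other 14 members the gap was small, at most 0.043, in Ndufa8. Among all 9969 genes the gap of Sdhd was the largest, followed by Akp3, an intestinal alkaline phosphatase, at 0.22 and Spink4 at 0.17. Ppargc1a, a coactivator of genes of mitochondrial biogenesis, had the sixth largest gap, 0.13, and lay at 8.88 in GA+GA, 9.18 in LG21+GA, 9.41 in GA+Asp, 9.05 in Tep+Asp and 9.22 in LG21+Asp. These values are of its brightest probe set, and with the mean of its probe sets the gap was 0.11.

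The promoters of 4 members are printed, namely Sdhd, Ndufs6 and Ndufa9, which had the widest ranges of all members, and Cycs. Cycs had a range of 0.12 and was among the members highest in GA+GA. They come from RefSeq, build GRCm38.p6, and run from 250 bases before to 50 after the annotated start, 5′ to 3′ on the gene's strand, which was minus for all 4. RefSeq promoters were matched for 33 of the 43 members. Capitals mark 4 motifs searched on both strands, namely GCGCANGCG (the core of the NRF1 site), CCGGAAG (the core of the GABP site), AAGATGGCG (the core of the YY1 site) and TCAAGGTCA (the site of the oestrogen-related receptors), each by its position from the start site. The Sdhd window, chr9:50603800-50604099, holds the NRF1 core at -79, the GABP core at -46 and the oestrogen-related receptor site at 37. The Cycs window is chr6:50566520-50566819 with the NRF1 core at -61, and the Ndufa9 window is chr6:126849095-126849394 with the YY1 core at 30. The Ndufs6 window is chr13:73328433-73328732, with the NRF1 core at -15 and the YY1 core at 34.
Sdhd: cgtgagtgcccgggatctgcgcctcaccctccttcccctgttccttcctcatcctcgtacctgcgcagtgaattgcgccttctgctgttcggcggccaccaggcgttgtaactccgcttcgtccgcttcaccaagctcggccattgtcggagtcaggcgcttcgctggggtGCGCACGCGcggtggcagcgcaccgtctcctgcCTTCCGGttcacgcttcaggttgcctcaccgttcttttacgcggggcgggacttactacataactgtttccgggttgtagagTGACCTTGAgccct
Cycs: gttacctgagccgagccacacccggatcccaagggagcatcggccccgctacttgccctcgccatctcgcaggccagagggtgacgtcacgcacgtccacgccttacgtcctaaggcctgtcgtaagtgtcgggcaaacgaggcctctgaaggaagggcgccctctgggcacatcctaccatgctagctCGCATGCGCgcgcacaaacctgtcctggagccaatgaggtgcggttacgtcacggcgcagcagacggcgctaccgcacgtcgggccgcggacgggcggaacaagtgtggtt
Ndufa9: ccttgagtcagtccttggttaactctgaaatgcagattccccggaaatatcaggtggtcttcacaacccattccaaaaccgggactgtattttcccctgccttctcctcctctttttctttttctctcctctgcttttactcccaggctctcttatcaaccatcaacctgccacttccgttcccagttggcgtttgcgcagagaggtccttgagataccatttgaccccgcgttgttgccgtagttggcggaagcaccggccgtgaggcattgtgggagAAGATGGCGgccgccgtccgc
Ndufs6: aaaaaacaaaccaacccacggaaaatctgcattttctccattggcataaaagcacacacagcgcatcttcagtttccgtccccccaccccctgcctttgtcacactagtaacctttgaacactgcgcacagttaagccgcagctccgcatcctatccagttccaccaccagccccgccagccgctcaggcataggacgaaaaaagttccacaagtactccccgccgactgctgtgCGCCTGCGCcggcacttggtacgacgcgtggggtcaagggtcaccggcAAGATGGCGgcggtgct

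These motifs are the binding cores of nuclear factors known for respiratory chain genes, and a match is a description of the letters alone. The NRF1 core was in the window of 11 of the 33 members, or 33.3%, against 7.03% of the 27025 genes with a window in RefSeq. The GABP core was in 7, or 21.2%, against 9.93%, and the YY1 core in 5, or 15.2%, against 1.64%. The oestrogen-related receptor site was in 1 member, Sdhd, and in 0.466% of all genes. The Sdhd window shared 151 bases with that of Timm8b, which encodes a chaperone of mitochondrial import and lies on the other strand. Timm8b had a range of 0.089, with 10.68 in GA+GA, 10.65 in LG21+GA, 10.72 in GA+Asp, 10.63 in Tep+Asp and 10.64 in LG21+Asp.

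The other subunits of complex II did not follow Sdhd. Sdha, the flavoprotein that oxidizes succinate, was the most level of the complex and lay between 11.48 and 11.50 on all 5 arrays. Sdhb, the iron-sulphur subunit, stood at 10.57 in GA+GA, 10.62 in LG21+GA, 10.57 in GA+Asp, 10.51 in Tep+Asp and 10.57 in LG21+Asp, so that only the LG21+GA and Tep+Asp arrays differed from the rest. Sdhc, the partner of Sdhd in the membrane, was 11.18 in GA+GA and between 11.26 and 11.29 on the other arrays. Sdhc and Sdhd thus shared their lowest array, GA+GA, and their highest, GA+Asp, but Sdhc was as high in Tep+Asp as in both LG21 arrays.

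Among the 17 members of complex I, the entry point for electrons from NADH, the widest differences were in accessory subunits. Ndufs6 stood at 9.40 in GA+GA, 9.42 in LG21+GA, 9.55 in GA+Asp, 9.34 in Tep+Asp and 9.40 in LG21+Asp. Ndufa9 stood at 10.68 in GA+GA, 10.64 in LG21+GA, 10.83 in GA+Asp, 10.67 in Tep+Asp and 10.66 in LG21+Asp. RefSeq lists a pseudogene of Ndufs6, and whether its transcripts reach this probe set is not known. In both genes the GA+Asp array stood above the other 4, which lay within 0.1 of each other. Ndufb10, an accessory subunit of the membrane arm, had another order, with 8.25 in LG21+GA and 8.23 in GA+Asp and between 8.09 and 8.11 on the other 3 arrays. Ndufv1, which carries the NADH-binding flavin, stood at 11.06 in GA+GA, 11.18 in LG21+GA, 11.19 in GA+Asp, 11.11 in Tep+Asp and 11.12 in LG21+Asp. Ndufa10 was lowest in GA+GA, at 11.76, and highest in GA+Asp, at 11.91.

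Other core subunits of complex I moved little. Ndufv2, an iron-sulphur subunit beside Ndufv1, lay at 11.89 or 11.90 on all 5 arrays and had the smallest range of the complex, 0.0071. Ndufs1, Ndufs3 and Ndufs8, which carry or neighbour the iron-sulphur chain, had ranges of 0.029, 0.053 and 0.049. Ndufs7, next to the ubiquinone site, was highest in LG21+Asp, at 12.23, and lowest in GA+GA, at 12.14. Ndufs4, an accessory subunit needed for complex assembly, stood at 11.36 in GA+GA, 11.34 in LG21+GA, 11.33 in GA+Asp, 11.29 in Tep+Asp and 11.28 in LG21+Asp, and was the one member with all 3 aspirin arrays below the other 2. Ndufa4, named for complex I and now known as a subunit of complex IV, was 10.64 in Tep+Asp and between 10.70 and 10.73 elsewhere. Of the accessory subunits not yet named, Ndufb5 and Ndufb8 were highest in GA+Asp with ranges of 0.11, Ndufa8 had a range of 0.096, Ndufb9 of 0.060 and Ndufa5 of 0.057.

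In complex III, 5 members were highest in GA+Asp, as were 33.6% of background genes, and Uqcrb and cytochrome c were highest in GA+GA. Uqcrb, a small subunit near the ubiquinone site, stood at 12.63 in GA+GA, 12.49 in LG21+GA, 12.56 in GA+Asp, 12.52 in Tep+Asp and 12.46 in LG21+Asp. Cycs, the somatic cytochrome c that carries electrons from complex III to complex IV, stood at 12.29 in GA+GA, 12.23 in LG21+GA, 12.24 in GA+Asp, 12.20 in Tep+Asp and 12.18 in LG21+Asp. Both were lowest in LG21+Asp, whereas Uqcrc1 and Uqcrq were lowest in GA+GA and Uqcrc2, Uqcrfs1 and Cyc1 in Tep+Asp. These encode the core proteins, the Rieske iron-sulphur protein, a small subunit and cytochrome c1. Uqcrc1 was the most level, between 11.62 and 11.66, and the widest of the 5 was Uqcrq, with a range of 0.099. RefSeq lists pseudogenes of Cycs, so its value is uncertain, as are those of Cox5b, Cox6c and Atp5pb below for the same reason. Uqcrb and Cycs each have 3 probe sets. The 3 of Uqcrb were all highest in GA+GA, but the dimmest of Cycs, at 6.12 to 6.55, was highest in GA+Asp. The dimmest of Uqcrb was lowest in LG21+GA and the dimmest of Cycs in Tep+Asp.

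Of the 6 measured subunits of complex IV, cytochrome c oxidase, 5 were highest in GA+Asp, against 33.6% of background genes. Cox4i1, the ubiquitous form of a subunit tied to regulation by ATP, stood at 11.47 in GA+GA, 11.47 in LG21+GA, 11.57 in GA+Asp, 11.39 in Tep+Asp and 11.48 in LG21+Asp. Cox5a, its neighbour in the complex, stood at 10.81 in GA+GA, 10.80 in LG21+GA, 10.84 in GA+Asp, 10.75 in Tep+Asp and 10.79 in LG21+Asp. Both genes were highest in GA+Asp and lowest in Tep+Asp, as were Cox5b, with a range of 0.088, and Cox8a, with a range of 0.074. Cox6c, the brightest member, stood at 13.10 in GA+GA, 13.10 in LG21+GA, 13.14 in GA+Asp, 13.14 in Tep+Asp and 13.13 in LG21+Asp, with all 3 aspirin arrays above the other 2. Cox7b was the exception, with 12.56 in GA+GA and 12.49 in LG21+Asp at the ends and 12.52 on the 3 arrays between. Its second probe set, between 11.80 and 11.86, was highest in GA+Asp.

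Complex V, the ATP synthase, was the most level of the 5 groups of members. The catalytic head was nearly constant, with Atp5b (beta) between 13.01 and 13.03, Atp5a1 (alpha) between 12.21 and 12.25, Atp5c1 (gamma) between 11.69 and 11.76 and Atp5d (delta) at 12.83 on 4 arrays and 12.84 in GA+Asp. Atp5o, which joins the head to the stalk, stood at 11.12 in GA+GA, 11.18 in LG21+GA, 11.17 in GA+Asp, 11.10 in Tep+Asp and 11.11 in LG21+Asp. Atp5pb, listed under its older symbol Atp5f1 and encoding the b subunit of the stalk, stood at 11.18 in GA+GA, 11.14 in LG21+GA, GA+Asp and Tep+Asp, and 11.09 in LG21+Asp. Its second probe set had the opposite order, with 10.94 in GA+GA, 10.98 on the next 3 arrays and 11.03 in LG21+Asp. The direction of this gene thus depends on the probe set and is not settled. Atp5h and Atp5j, also of the stalk, had ranges of 0.026 and 0.056. The brightest probe set of Atp5h was highest in GA+Asp, but its dimmer ones were highest in GA+GA and lowest in LG21+Asp. The highest array of Atp5h thus depends on the probe set too.

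**Figure D2:**
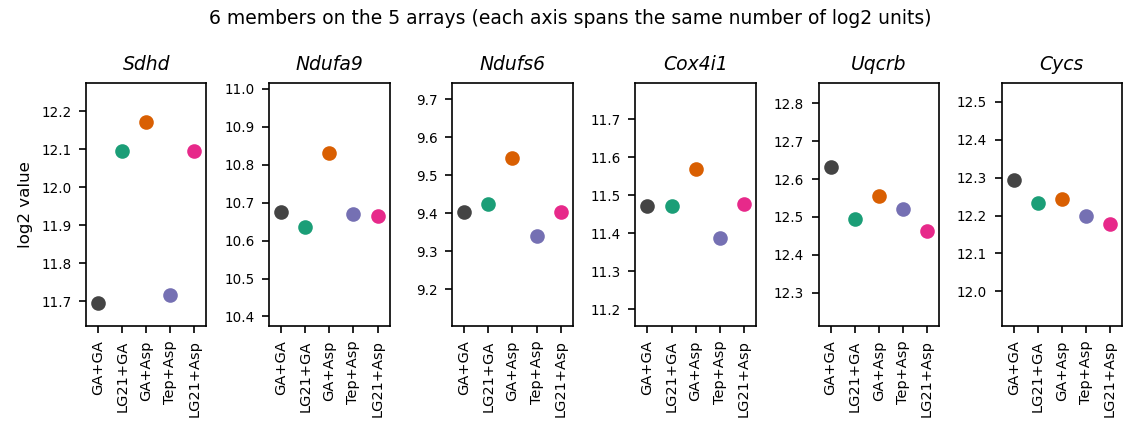
Log2 values of Sdhd, Ndufa9, Ndufs6, Cox4i1, Uqcrb and Cycs on the 5 arrays, 1 point per array and no error bars since each group has 1 array. The y axes differ in level but span the same number of log2 units; Sdhd splits into 3 high and 2 low arrays, Ndufa9, Ndufs6 and Cox4i1 are highest in GA+Asp, and Uqcrb and Cycs are highest in GA+GA.

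Counted over members, the GA+Asp array stood out as the high one. It was strictly the highest of the 5 for 28 of 42 members and the lowest for 0, where the background shares were 33.6% and 8.69%, and 38.5% and 5.14% among genes above the 75th percentile. The 28 became 18 after quantile normalization and 18 after cyclic loess, with GA+Asp the lowest for 3 members after the latter. GA+GA was the lowest for 15 and the highest for 6, against 26.3% and 11.8% of background genes. Tep+Asp was the lowest for 17 members and the highest for 1, Ndufs1, against 13.8% and 17.2%. LG21+GA was the highest for 5 and the lowest for 2, against 15.5% and 16.5%, and LG21+Asp the highest for 2 and the lowest for 6, against 11.7% and 24.3%. LG21+Asp was the highest for 9 members after quantile normalization and for 8 after cyclic loess. After quantile normalization GA+GA was the lowest for 22 members and Tep+Asp for 11. Background shares were not counted after either normalization, so these counts cannot be set against genes in general. In the deposited values, high values in GA+Asp were frequent among genes in general too, and low values in Tep+Asp less so.

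The comparison of GA+Asp with GA+GA, called aspirin alone here, asks what the drug does without a protective agent. The 42 members were higher in GA+Asp than in GA+GA by a median of 0.041, where the median of the background genes was 0.013 and that of genes above the 75th percentile 0.020. The difference was above 0 for 35 members, equal for 1 and below 0 for 6, against 58.3% of background genes above and 23.5% below 0. It reached 0.1, or 1.07-fold, for 9 members, all higher in GA+Asp, against 12.4% of background genes at least 0.1 higher and 4.54% at least 0.1 lower. Sdhd was 0.48 higher, Ndufa9 0.16 and Ndufa10 0.15, while the lowest differences were -0.076 for Uqcrb, -0.049 for Cycs and -0.037 for Atp5pb. The sign depended on the probe set for the last 2. The second probe set of Atp5pb differed by 0.0484, and the mean of the Cycs probe sets by 0.0093. Atp5h, at 0.0145, was counted above 0, but its dimmer probe sets differed by -0.0132 and -0.0372. By complex, the median was 0.046 in complex I, 0.066 in II, 0.044 in III, 0.048 in IV and 0.024 in V, so that each had a median above 0 and complex V the smallest. The median over all members was 0.026 after cyclic loess and 0.021 when centred on genes above the 75th percentile. Complex I held 7 of the 9 members past 0.1, and the other 2, Sdhd and Sdhc, were in complex II.

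The tissue markers moved with this comparison and their part in it was not tested. The hepatocyte markers differed by a median of -3.06, the squamous markers by -0.079 and the skeletal muscle markers by 0.22. From GA+GA to GA+Asp the albumin gene Alb, a hepatocyte marker, went from 12.69 to 7.43, and Acta1, the actin of skeletal muscle, from 7.94 to 8.74. The parietal cell markers had a median difference of 0.057, with 16 of 18 above 0 and 5 at least 0.1 higher, against 58.3% and 12.4% of background genes. They were led by the gastrin receptor Cckbr, at 9.25 in GA+GA and 9.63 to 9.73 on the other arrays. Members with 1 probe set were above 0 in 31 of 34 cases and those with several in 4 of 8.

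LG21 alone, the comparison of LG21+GA with GA+GA, asks what the bacterium does without aspirin. The members' median difference was 0.016 against 0 for the background genes, with 28 members above 0, 3 equal and 11 below, where 46.4% of background genes were above and 32.3% below. At least 0.1 higher were Sdhd (0.40), Ndufb10 (0.16) and Ndufv1 (0.12), against 7.02% of background genes. Uqcrb, at -0.14, was the one member at least 0.1 lower, against 5.67%. Cycs and Ndufa9 were next lowest, at -0.061 and -0.040. After quantile normalization the members' median was 0.030. The hepatocyte markers differed by a median of -0.66 in this pair, and their part was not tested. This comparison and aspirin alone share the control array, in which Sdhd was low and Uqcrb high.

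LG21 before aspirin, LG21+Asp set against GA+Asp, asks what pretreatment with the bacterium changes. It shares the GA+Asp array with aspirin alone and with the next comparison. The members were lower in LG21+Asp, with a median of -0.032 against -0.013 for the background genes and -0.021 for those above the 75th percentile. The difference was below 0 for 36 members, equal for 3 and above 0 for 3, against 58.2% of background genes below and 23.7% above. At least 0.1 lower were 4 members, all of complex I, among them Ndufa9 (-0.17), Ndufs6 (-0.14) and Ndufb10 (-0.13), and the fourth was Ndufb8. The background shares were 12.9% lower and 4.32% higher by 0.1, so the count of members past 0.1 was no larger than that of genes in general. Ndufs7 was 0.050 higher, Atp5j 0.023 and Ndufs1 0.0020. Sdhd differed by -0.078, a small part of its spread. The members' median was -0.011 after cyclic loess, -0.012 when centred on genes above the 75th percentile and -0.018 after quantile normalization. In this pair the hepatocyte markers were higher in LG21+Asp by a median of 1.65 (11 of 12 above 0), while the squamous markers differed by -0.75 (13 of 14 below 0) and the skeletal muscle markers by -0.22 (9 of 13 below 0), and their part was not tested.

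Teprenone before aspirin, the difference of Tep+Asp from GA+Asp, had the members' median that lay furthest from that of the background among the 6 pairs of arrays. They were lower in Tep+Asp than in GA+Asp by a median of -0.048, where the median was -0.0030 for the background genes and -0.011 for those above the 75th percentile. The difference was below 0 for 38 members, equal for 3 and above 0 for 1, Ndufs1 (0.0092), against 51.8% of background genes below and 28.9% above. By at least 0.1, 6 members were lower and 0 higher, against 7.87% and 6.15% of background genes. Sdhd differed by -0.46, Ndufs6 by -0.20 and Cox4i1 by -0.18, and the other 3 were Ndufa9, Ndufb10 and Ndufb8. The median was -0.060 in complex I, -0.049 in II, -0.045 in III, -0.081 in IV and -0.021 in V. In this pair of arrays the squamous markers were higher in Tep+Asp by a median of 0.52, the hepatocyte markers by 0.63, the endothelium and fibroblast markers by 0.18 (9 of 9 above 0), the leukocyte markers by 0.088 and the smooth muscle markers by 0.057. The parietal cell markers differed by a median of -0.0069 and the skeletal muscle markers by -0.22. Their part in the members' difference was not tested. After cyclic loess normalization the members' median was -0.031.

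**Figure D3:**
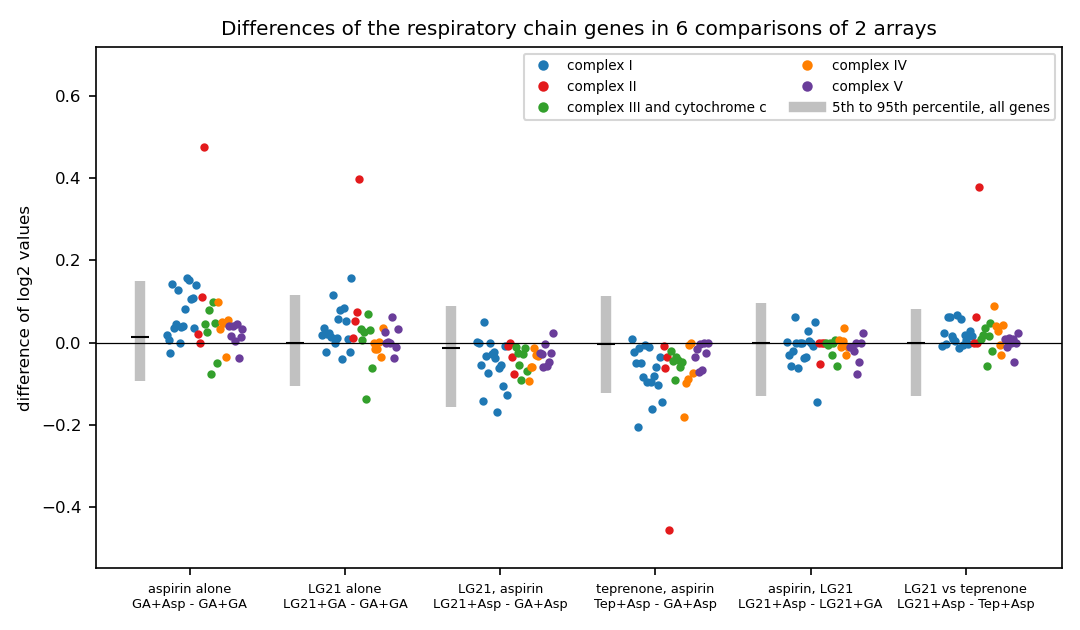
Difference of log2 values between 2 arrays for each of the 42 members in 6 comparisons, 1 point per gene, coloured by complex. The grey bar spans the 5th to 95th percentile of the 9969 background genes and the black dash is their median; the members lie mostly above 0 with aspirin alone, mostly below 0 in LG21+Asp and Tep+Asp against GA+Asp, and Sdhd is the far point of 4 comparisons.

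The last 2 pairs of arrays showed the members close to level. Aspirin after LG21, LG21+Asp against LG21+GA, gave a median of -0.00090 against 0 for the background genes, with 10 members above 0, 11 equal and 21 below, where 33.9% of background genes were above and 44.6% below. Ndufb10, at -0.15, was the one member at least 0.1 lower, and 0 were 0.1 higher, against 8.18% and 4.6% of background genes. Atp5o (-0.076) and Ndufv1 (-0.063) came next, and Ndufs7 (0.063), Ndufb9 (0.051) and Cox6c (0.034) were the highest. Sdhd had the same deposited value on both arrays, as did 21.5% of background genes. The squamous markers differed by a median of -1.05 here and the hepatocyte markers by -0.76, and their part was not tested. The 2 aspirin comparisons share no array, and aspirin alone differed by 0.48 in Sdhd where aspirin after LG21 differed by 0.

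LG21 against teprenone before aspirin sets the bacterium beside the drug in aspirin-treated mice. The members' median was 0.011, with 27 above 0, 4 equal and 11 below, where background genes leaned the other way, 30.9% above and 47.4% below. Sdhd was 0.38 higher in LG21+Asp and was the one member at least 0.1 higher, against 3.45% of background genes. Cox4i1 was 0.089 higher and Ndufa4 0.067, and 0 members were at least 0.1 lower, against 8.33%. The lowest were Uqcrb (-0.058), Atp5pb (-0.047) and Cox7b (-0.029). The second probe set of Atp5pb differed by 0.0475 and that of Cox7b by 0.0036, so the sign of both depended on the probe set. Squamous markers differed by a median of -1.42 in this pair, endothelium and fibroblast markers by -0.20 and hepatocyte markers by 0.95, and their part was not tested.

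With pretreatments pooled, limma set the 3 aspirin arrays against the remaining 2 over the 9969 background genes. The members' median difference was 0.0073, against 0.0064 for the background genes, with 27 above 0 and 15 below and 0 past 0.1 either way. The background shares were 58.1% above 0, 38.8% below, 3.72% at least 0.1 higher and 3.25% at least 0.1 lower. After Benjamini-Hochberg adjustment limma called 0 of the 42 members and 0 of all genes, and 1 member and 430 genes had an unadjusted p under 0.05. That member was Cox6c, 0.041 higher in the aspirin arrays (SE 0.0071, limma adjusted p = 0.735). Without the LG21+GA array 82 genes were called, of which 0 were members. The 3 aspirin arrays all lay above the other 2 in 2 members, Ndufb9 and Cox6c, and all below in Ndufs4, against 8.68% and 3.80% of background genes. With 3 arrays against 2, an exact permutation test of a single gene cannot go below p = 0.1.

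Other genes of oxidative metabolism were read beside the members. Of 37 other nuclear genes of the complexes, mostly subunits, 35 were measured and their median difference with aspirin alone was 0.084. Above 0 were 31 and at least 0.1 higher 12, against 58.3% and 12.4% of background genes. With teprenone before aspirin the median was -0.062, with 32 below 0 and 12 at least 0.1 lower, against 51.8% and 7.87% of background genes. The widest of them were Ndufb2, a small complex I subunit, between 7.57 in Tep+Asp and 7.87 in LG21+GA, and Cox7a2l, a factor of respiratory supercomplexes, between 8.97 in GA+GA and 9.23 in LG21+GA. Next were Ndufb3, lowest in LG21+Asp at 7.75, and Ndufa2, highest in GA+Asp at 9.46. GA+Asp was the highest array for 20 of the 35, against 33.6% of background genes.

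The same arrays were high and low in several neighbouring lists. With aspirin alone the median was 0.049 over 17 genes of the citric acid cycle and pyruvate dehydrogenase, 0.060 over 33 mitochondrial ribosomal proteins, 0.021 over 38 assembly factors and 0 over 21 carriers, import and dynamics genes. With teprenone before aspirin these medians were -0.045, -0.063, -0.043 and -0.0055. The 13 measured genes of glycolysis, which makes ATP outside mitochondria, had medians of 0.047 and -0.037, close to those of the respiratory chain. Differences of this size and sign were thus also seen outside oxidative phosphorylation.

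Among 19 regulators of mitochondrial genes the widest was Ppargc1a, given above, with a difference of 0.52 for aspirin alone. With the mean of its probe sets this difference was 0.34. Tfb1m, which modifies mitochondrial ribosomal RNA, stood at 8.49 in GA+GA, 8.39 in LG21+GA, 8.69 in GA+Asp, 8.53 in Tep+Asp and 8.53 in LG21+Asp. Pprc1, a relative of Ppargc1a, ranged over 0.18, and Twnk, the mitochondrial DNA helicase, over 0.17, and the median over all 19 was 0.044 with aspirin alone.

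Only 2 of 13 mitochondrially encoded genes were measured, and they had an order of their own. ND3, a core subunit of complex I, stood at 12.47 in GA+GA, 12.35 in LG21+GA, 12.39 in GA+Asp, 12.35 in Tep+Asp and 12.15 in LG21+Asp. COX2, a catalytic subunit of complex IV, stood at 12.84 in GA+GA, 12.76 in LG21+GA, 12.78 in GA+Asp, 12.78 in Tep+Asp and 12.72 in LG21+Asp. Both were highest in the control and lowest in LG21+Asp, the ends that Uqcrb, Cycs, Ndufs4, Cox7b and Atp5pb also had. The dimmest probe sets of Uqcrb, Cycs, Cox7b and Atp5pb did not have both of these ends. Of 9 tissue isoforms of subunits, 7 lay below the median level of genes, among them the heart and muscle forms Cox6a2 and Cox8b. Cox7a1, a form known from heart and skeletal muscle, was 11.54 in GA+GA and LG21+GA, 11.72 in GA+Asp and 11.61 in Tep+Asp and LG21+Asp. GA+Asp, where the skeletal muscle markers were highest, was also the highest array for Cox7a1 and Cox8b. It was the lowest for Cox6a2, at 6.77, and a link to muscle content was not tested.

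**Figure D4:**
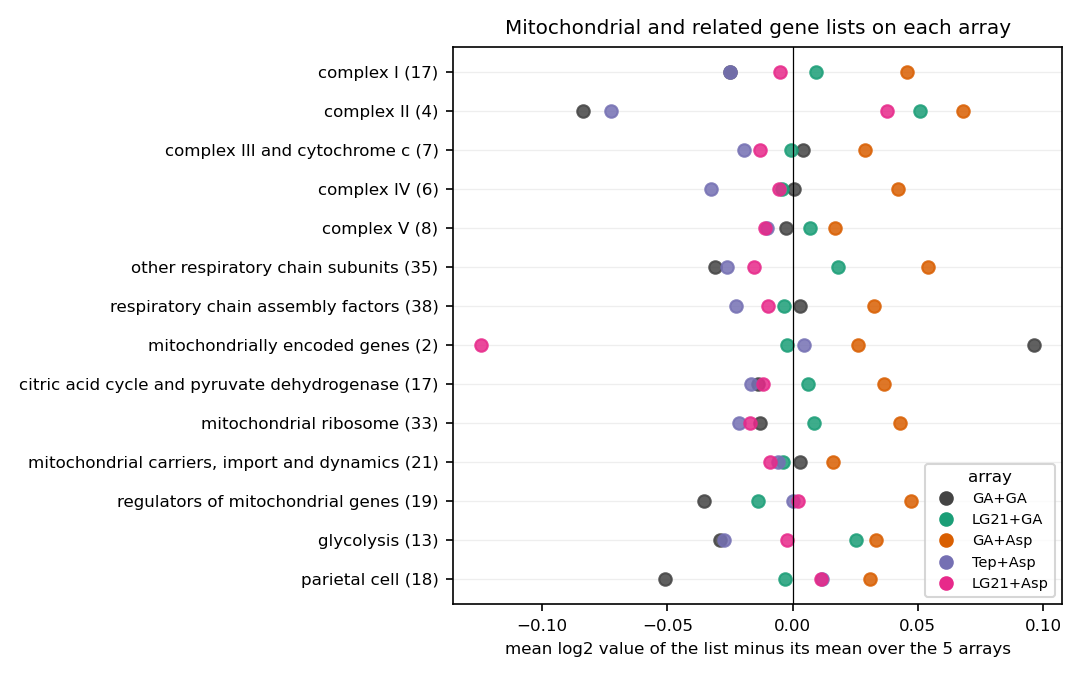
Mean log2 value of each list on each of the 5 arrays minus the list's mean over the arrays, with the number of measured genes in parentheses, 1 point per array and no error bars. GA+Asp is the highest point of every list shown but the mitochondrially encoded genes, which are highest in GA+GA and lowest in LG21+Asp. Complex II has the widest spread of the complexes, with a range of 0.48 for Sdhd and at most 0.12 for its other genes.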

How the data were processed

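Total RNA of mouse tissue labelled gut was profiled on 5 arrays, 1 per group, and samples were grouped by their titles. The deposited log2 values are RMA values, that is background-corrected, normalized between arrays and summarised by probe set, made with Expression Console per the labels (the design text gives the Exon Array Computational Tool instead); versions and a genome build are not given in the sources used here, and the log2 scale was read from values of 1.32 to 13.87. The number of arrays limits the precision.

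The authors' normalization was kept. Of 35557 probe sets, 21789 had 1 gene symbol in the platform annotation, 1621 several, and 21698 of the single ones matched RefSeq GRCm38.p6; these gave 19938 genes, each by its brightest probe set. Differences of 2 arrays were described without a test. limma 3.58.1 in R 4.3.3 tested the aspirin arrays against the others over genes above the median level, with Benjamini-Hochberg adjustment and 3 residual degrees of freedom, and was tested on simulated data. Tables were made with Python 3.11.15, pandas 2.3.3, numpy 2.4.6 and figures with matplotlib 3.10.9. Alternatives were the mean of probe sets, quantile normalization, cyclic loess (3 iterations), centring, other thresholds and filters, other sets of members, and leaving out each array.

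Any member could be named. Values on all arrays were given for the 2 widest and the most level member of each complex and for members at least 0.2 apart in a pair, and other members were added after their values were seen. In each pair the 3 members furthest above and below 0 were named, where there were so many, and up to 4 genes of each other list. Timm8b, Cckbr, Alb and Acta1 were chosen after their values were seen. The members and lists were chosen with earlier results of these data known.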

Additional observations from a re-analysis of the deposited data

Results flagged for a closer look

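Ndufb10 was 0.14 higher with aspirin alone and differed by -0.15 with aspirin after LG21, so that the 2 aspirin comparisons, which share no array, went opposite ways by at least 0.1. The second minus the first came to -0.29. Each comparison is 1 array against 1, and the difference between them was not tested. Ndufb10 was the dimmest member, with a mean log2 value of 8.16. No group had the 4 arrays needed to look for an outlying array.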

How the results depend on the processing

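The members' median difference kept its sign under every alternative for aspirin alone (0.021 to 0.057), LG21 alone (0.013 to 0.030), LG21 before aspirin (-0.045 to -0.011), teprenone before aspirin (-0.066 to -0.031) and LG21 against teprenone before aspirin (0.0093 to 0.023). For aspirin after LG21 it lay between -0.013 and 0.0025, on both sides of 0. A move of 0.02 or more was seen in 3 cases: centring on genes above the 75th percentile left 0.021 for aspirin alone and -0.012 for LG21 before aspirin, and cyclic loess left -0.011 for the latter. The first 2 follow from the centring itself, since bright genes differed the same way; the cause of the third was not tested. Restricting to the 34 members with 1 probe set and leaving out Sdhd were added after seeing the data.

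GA+Asp was the highest array for 28 members as deposited and for 18 after quantile normalization or cyclic loess, where background genes were not counted. At a threshold of 0.2, 1 member was higher with aspirin alone (Sdhd) and 2 lower with teprenone before aspirin. Background genes were not counted at 0.2 in these pairs, so these counts cannot be set against genes in general. The gap in Sdhd was 0.37 to 0.38 under every normalization tried. For the aspirin arrays against the others the median was -0.0055 to 0.020 with each array left out; it changed sign without GA+Asp replicate 1 and was 0.020 without LG21+GA replicate 1 or Tep+Asp replicate 1. limma called 0 members in all 9 settings, at a lowest adjusted p of 0.19 to 0.83, and 82 genes without LG21+GA replicate 1. No paired analysis was possible because each group has 1 array. The 11 members above 12 lie near the top of the scale, where a small difference is a weak guide.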
